A study of Homo sapiens with 10 samples.

Results

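MYC, MYCN and MYCL are the 3 genes of the MYC family, and the acetylated chromatin around them was read from 4 peak lists, 1 for each of 2 histone marks in each of 2 prostate cancer cell lines. The members were all peaks over each gene body and 100 kb to each side, and for MYC over 1 Mb to each side. They numbered 785 of 537404 peaks in the 4 lists. For H3K27ac, acetylation of histone H3 at lysine 27, the windows held 106 of 72971 peaks in C4-2BER and 115 of 68034 in C4-2B. For H3K18ac, acetylation at lysine 18, they held 280 of 197948 peaks in C4-2BER and 284 of 198451 in C4-2B.

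The C4-2B line models castration-resistant adenocarcinoma of the prostate. C4-2BER was derived from it, resists the antiandrogen drug enzalutamide, is grown in the continuous presence of the drug and is described as NE-like, that is, with neuroendocrine features. Each mark was profiled by ChIP-Seq, which sequences the DNA pulled down with an antibody against the modified histone, in 2 libraries per cell line, with 1 input library per cell line. The comparison asks where acetylated chromatin differs between the adenocarcinoma line and its NE-like derivative. The derivative, its drug and its time in culture cannot be told apart in this design, since 1 line stands for each state.

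The authors merged the libraries before peak calling, so each region had 1 value per line and mark, with no replicate error and no test. All differences below describe these pooled libraries. The value of a peak is its fold enrichment, the authors' mean ChIP signal across the peak over the local background. The depth behind the peaks is unknown. The lists were unequal in extent: H3K27ac peaks covered 144.8 Mb in C4-2BER and 117.1 Mb in C4-2B, and H3K18ac peaks 320.7 and 293.2 Mb. Their scales were unequal too. Over the promoters of all protein-coding genes with a peak in both lines, the median log2 ratio of C4-2BER over C4-2B was −0.50 for H3K27ac (14304 genes) and −0.33 for H3K18ac (16702 genes). Rescaling by a robust line through the regions shared by the lines brought these medians to −0.11 and −0.13, so each ratio below is read against them.

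The MYC family encodes basic helix-loop-helix transcription factors that pair with MAX, bind E-box sequences and raise the transcription of genes for ribosome assembly, nucleotide synthesis and the cell cycle. MYC is the broadly expressed member and sits in a long stretch of the genome with few other coding genes, where distant enhancers and long noncoding RNA (lncRNA) genes such as PVT1 and PCAT1 surround it. MYCN normally acts in the embryonic nervous system and is a known driver of neuroendocrine prostate cancer, and MYCL is best known from small cell lung cancer. H3K27ac and H3K18ac are placed by the acetyltransferases p300 and CBP and mark active promoters and enhancers.

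The markers of the cell types were examined first. All 9 luminal prostate genes listed carried both marks at their promoters in both lines, among them KLK3, which encodes prostate-specific antigen, with an H3K27ac fold of 13.8 in C4-2BER against 20.3 in C4-2B. Of 9 neuroendocrine genes, 4 had no H3K27ac promoter peak in either line (NEUROD1, NCAM1, CHGA and INSM1), and ENO2 rose from 4.00 in C4-2B to 14.3 in C4-2BER. The 3 basal genes TP63, KRT5 and KRT14 had no H3K27ac promoter peak. In these lists the label NE-like thus stood on few of the listed promoters, and the luminal promoters stayed marked.

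All 3 MYC family promoters carried both marks in both lines, and MYC and MYCL stood far above MYCN. The promoter value of a gene is the highest fold enrichment of a peak within 2000 bp upstream to 500 bp downstream of any of its annotated transcription start sites (TSSs). None of the 3 passed the 2-fold ratio, or a peak in 1 line only, by which a promoter was counted as changed. Over all 20033 protein-coding genes, 3.49% were increased and 8.27% decreased in H3K27ac, and 1.92% and 5.25% in H3K18ac. After rescaling these shares were 3.86% and 3.36%, and 2.02% and 4.15%. All these shares count the genes without a peak, 4687 in H3K27ac and 2205 in H3K18ac, which could not be called.

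MYC lies on the forward strand of chromosome 8 (GRCh38 chr8:127735434-127742951, ENSG00000136997.22), with 14 annotated TSSs. A single H3K27ac peak of 13290 bp covered the whole gene in C4-2BER, with a fold of 15.6, and one of 10823 bp did so in C4-2B, with a fold of 24.3. The H3K18ac peak was 10919 bp wide with a fold of 7.00 in C4-2BER, and 9753 bp wide with 8.84 in C4-2B. Both marks were thus lower and somewhat wider in C4-2BER. The log2 ratios were −0.64 for H3K27ac and −0.34 for H3K18ac, and −0.17 and −0.09 after rescaling, close to the medians of all genes on either scale. The MYC promoter was stronger than that of 74.0% of protein-coding genes with an H3K27ac peak in C4-2BER against 75.7% in C4-2B. For H3K18ac these shares were 74.7% and 70.0%.

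MYCN lies on the forward strand of chromosome 2 (chr2:15940550-15947007, ENSG00000134323.13), with 3 TSSs. Its H3K27ac fold was 3.13 in C4-2BER against 3.42 in C4-2B, stronger than only 7.30% and 8.06% of the marked promoters. Its H3K18ac fold was 4.03 and 4.61, stronger than 23.9% and 25.9%. The MYCN promoter was therefore weak in both lines and both marks. The log2 ratios of −0.13 and −0.19 (−0.10 and −0.03 after rescaling) exceeded those of 82.4% and 67.0% of genes, so that MYCN lay 0.38 and 0.14 above the median of all genes, although its own sign was negative. After rescaling it lay close to that median, at −0.10 beside −0.11 for H3K27ac and −0.03 beside −0.13 for H3K18ac. The H3K27ac peak of C4-2BER was 582 bp wide and lay from −992 to −411 bp of the TSS, over an exon of the antisense gene MYCNOS, while that of C4-2B was 1021 bp wide and reached past the TSS. C4-2BER had a further H3K27ac peak of 340 bp and a fold of 2.26 inside the gene, upstream of the last of its 3 TSSs, where C4-2B had none. The first of these C4-2BER peaks was stronger than 46.4% of its list and the second than 13.9%.

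The 250 bases before the MYCN start are shown because this stretch lay in the H3K27ac peak of C4-2B and outside that of C4-2BER. It comes from the promoter table of RefSeq (GRCh38, chr2:15940300-15940549, forward strand). Capitals mark GGGCGG, the GC box bound by SP1, and TTTGGCGC, a form of the E2F site, on either strand. These motifs were chosen after the sequence was read.
MYCN: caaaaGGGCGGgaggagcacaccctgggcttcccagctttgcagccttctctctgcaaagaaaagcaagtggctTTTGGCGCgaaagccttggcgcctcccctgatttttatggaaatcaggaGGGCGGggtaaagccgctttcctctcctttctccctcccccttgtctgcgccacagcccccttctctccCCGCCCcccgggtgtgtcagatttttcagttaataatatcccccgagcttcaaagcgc

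MYCL lies on the reverse strand of chromosome 1 (chr1:39895428-39902256, ENSG00000116990.12), with 3 TSSs. Its H3K27ac fold was 13.4 in C4-2BER against 21.9 in C4-2B, in peaks of 2381 and 2088 bp. Its H3K18ac fold was 6.77 in C4-2BER, in a peak of 5771 bp, and 12.3 in C4-2B, in a peak of 2423 bp. The log2 ratios were −0.71 and −0.86, and −0.28 and −0.60 after rescaling. The H3K18ac ratio was lower than that of all but 4.64% of genes, and that of H3K27ac lower than all but 27.9%. In C4-2B the MYCL promoter was stronger in H3K18ac than 93.8% of marked promoters, and in C4-2BER than 70.6%. MYCL was therefore the member whose promoter stood most apart between the lines, in H3K18ac, although it stayed under the 2-fold threshold. The fold is averaged over the width of a peak, and the C4-2BER peak was the wider. Peak strength can therefore not be told apart from width in this difference.

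The 250 bases upstream of the outermost MYCL start are shown for comparison with MYCN (GRCh38, chr1:39902257-39902506, reverse strand). They had a GC content of 70.0% with 23 CpG sites, against 57.2% and 11 in the MYCN stretch. The single GC box is in capitals, and TTTGGCGC was not found.
MYCL: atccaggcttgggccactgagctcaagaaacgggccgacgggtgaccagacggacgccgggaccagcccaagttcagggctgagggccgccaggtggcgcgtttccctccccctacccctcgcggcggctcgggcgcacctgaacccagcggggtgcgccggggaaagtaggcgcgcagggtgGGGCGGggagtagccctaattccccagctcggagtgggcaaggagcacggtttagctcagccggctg

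**Figure D1:**
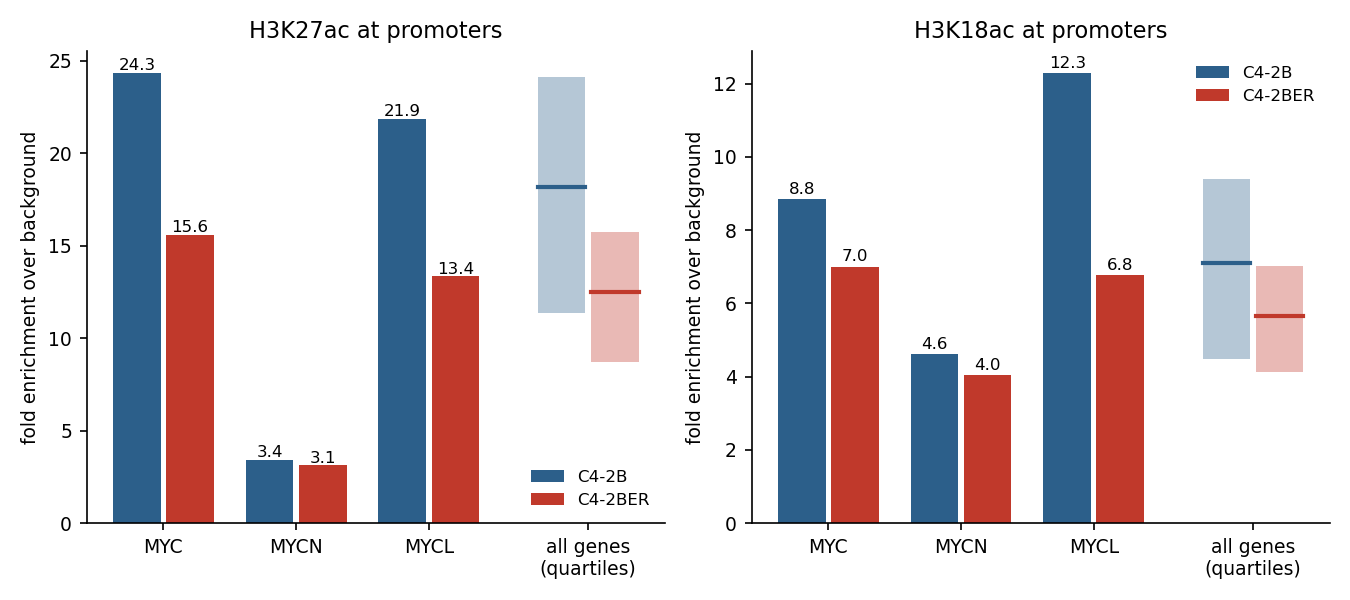
Promoter fold enrichment over the local background (y axis) of MYC, MYCN and MYCL for H3K27ac (left) and H3K18ac (right) in C4-2B (blue) and C4-2BER (red), 1 value per pooled list. The shaded boxes span the quartiles of all protein-coding genes with a promoter peak and the line is their median, which was 18.2 in C4-2B and 12.5 in C4-2BER for H3K27ac. All 3 genes were lower in C4-2BER, as was the median of all genes.

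The genes whose 4 promoter values were nearest to those of a member, by the Euclidean distance of the log2 values over the 4 lists among 14241 genes with all 4 values, were as follows. For MYC these were CMC4, MTCP1 and BRCC3, which share 1 promoter, at a distance of 0.0397. For MYCN they were CHST2, CLCN1 and SOX18, at 0.0662 to 0.0893. For MYCL they were DENND2B, PIGV and PAXBP1, at 0.0769 to 0.0988.

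Away from its promoter, the MYC locus was the most heavily acetylated of the 3. Within 100 kb of the gene, H3K27ac peaks covered 33.7% of the bases in C4-2BER against 25.3% in C4-2B, more than around 91.6% and 87.9% of protein-coding genes. H3K18ac peaks covered 52.9% and 37.98%. Around MYCL, H3K27ac covered 19.96% in C4-2BER against 17.2% in C4-2B, and H3K18ac 45.5% and 34.3%. Around MYCN, H3K27ac covered 5.83% in C4-2BER against 5.84% in C4-2B, and H3K18ac 25.04% and 21.3%. The median over all genes was 7.93% and 6.27% for H3K27ac, so MYCN lay below the median gene in both lines. For H3K18ac the median was 16.7% and 14.8%, and MYCN lay above it.

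The MYC acetylation was concentrated on the downstream side, over the lncRNA gene PVT1. From the canonical MYC TSS to 400 kb downstream, H3K27ac peaks covered 237.6 kb in C4-2BER and 161.9 kb in C4-2B, a ratio of 1.47. H3K18ac peaks covered 290.4 kb in C4-2BER and 189.6 kb in C4-2B, a ratio of 1.53. The H3K27ac cover of C4-2BER exceeded that of 99.8% of all 20033 protein-coding genes over the same span, and that of C4-2B 97.6%. The H3K18ac cover exceeded 99.96% in C4-2BER against 91.0% in C4-2B. Neighbouring genes share such spans, so these shares are descriptions. The ratio itself was above that of 71.6% of genes for H3K27ac (median 1.24) and 81.1% for H3K18ac (median 1.05). Among spans covered to at least 25% on the mean of both lines, it was above 95.7% and 96.6% of genes, whose medians were 1.096 and 0.88. The 400 kb limit was chosen after the peaks were seen.

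Within this stretch the peaks of C4-2BER were fewer and wider. The widest was an H3K27ac peak of 49317 bp (chr8:127836704-127886020), from 100.5 to 149.8 kb downstream of the MYC TSS over exons and introns of PVT1, with a fold of 8.54. It ranked 17 of 72971 by width. C4-2B had 5 peaks in its place, with folds of 2.90, 4.27, 11.6, 7.41 and 6.77 and a length-weighted mean of 8.50. The H3K18ac peak of C4-2BER over the same bases was 49283 bp wide, ranked 29 of 197948, and had a fold of 5.10, against 6 peaks in C4-2B with a mean of 5.08. The mean folds were thus alike while the gaps between peaks differed. From 170.7 to 196.0 kb, 1 H3K27ac peak of C4-2BER stood where C4-2B had 7, at 4.55 and 4.56. From 211.1 to 238.5 kb, 1 peak stood where C4-2B had 3, at 7.44 and 6.39. From 200 to 300 kb downstream, H3K27ac covered 72.1 kb in C4-2BER and 37.1 kb in C4-2B, and H3K18ac 77.2 and 39.9 kb, the largest difference of all the 100 kb intervals in both marks.

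**Figure D2:**
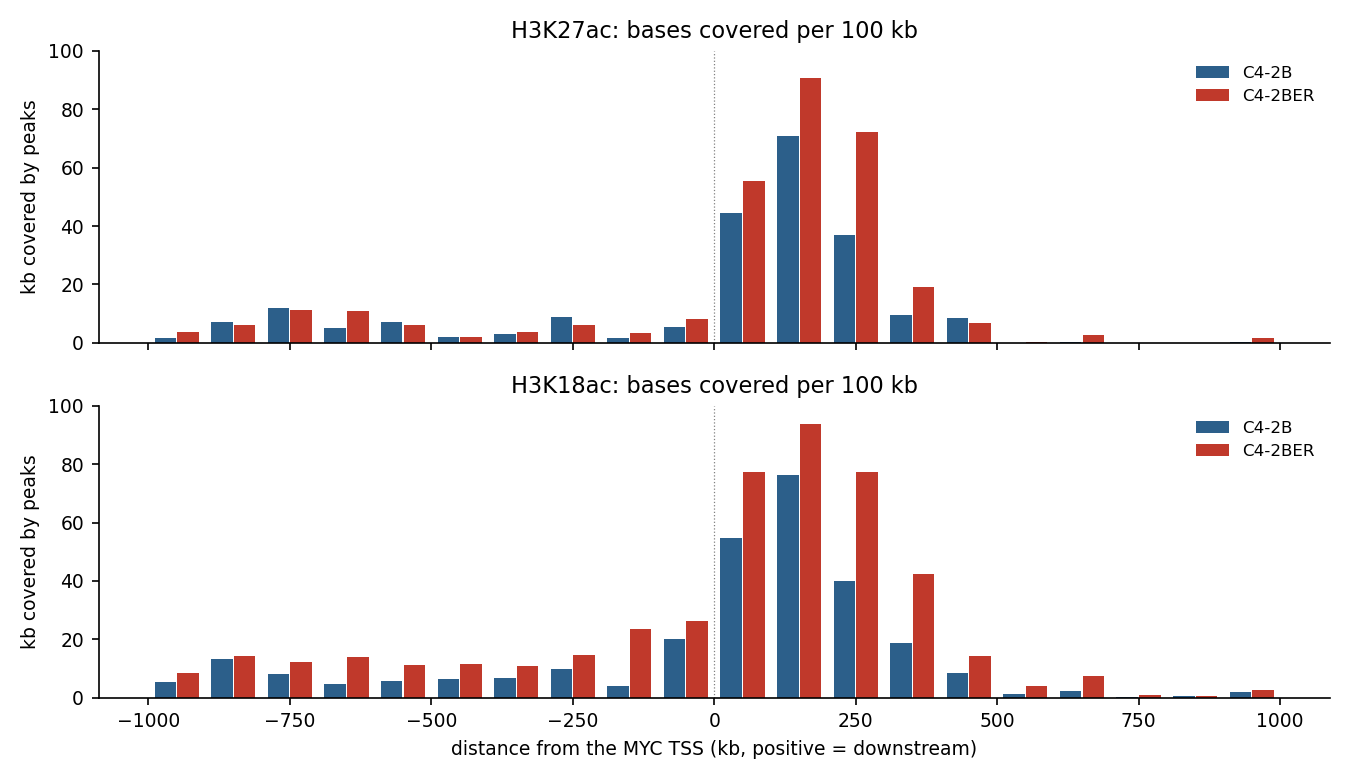
Bases covered by peaks in each 100 kb interval within 1 Mb of the canonical MYC TSS (x axis, kb, positive values downstream), for H3K27ac (top) and H3K18ac (bottom) in C4-2B (blue) and C4-2BER (red). The cover was highest from 100 to 200 kb downstream, at 90.8 kb in C4-2BER and 70.8 kb in C4-2B for H3K27ac.

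Single H3K27ac peaks over PVT1 were higher in C4-2BER at some places and in C4-2B at others. The highest H3K27ac peak at a PVT1 TSS had a fold of 11.2 in C4-2BER, from 56.6 to 69.01 kb, and one of 11.6 in C4-2B, at other starts from 106.6 kb. Farther down, in a PVT1 intron from 416.9 to 418.5 kb, C4-2B had its strongest H3K27ac peak of the window outside the promoter, with a fold of 13.6, in a region where C4-2BER reached 7.21. Over the first 100 kb downstream, which takes in the MYC promoter peak, the mean fold was 7.62 in C4-2BER against 10.2 in C4-2B. These means are therefore not of PVT1 alone. The PVT1 region from 56.5 to 89.7 kb had mean folds of 6.93 and 9.04, in the same order. From 100 to 400 kb the mean fold was 6.01 and 6.25. The 16 shared H3K27ac regions from 100 to 400 kb had a median log2 ratio of 0.0027, with 8 higher in C4-2BER, beside −0.17 over all shared regions. The fold is averaged over the width of a peak, so the wider peaks of C4-2BER take in weaker stretches, and peak strength cannot be told apart from width here.

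Over the whole 1 Mb to each side of MYC, overlapping peaks of both lines were merged into regions. Of 82 H3K27ac regions, 21 (25.6%) were increased and 13 (15.9%) decreased in the derivative, below the shares of 30.5% and 22.7% over all 89877 regions. Of 245 H3K18ac regions, 81 (33.1%) were increased and 28 (11.4%) decreased, against 26.2% and 23.5% over all 247646 regions. All 81 and all 28 were peaks of 1 line only, so the H3K18ac counts describe where a peak was called. They were weak peaks, with folds of at most 3.88 in C4-2BER and 3.34 in C4-2B. Among peaks with a −log10 q of at least 5, 20 regions were increased and 21 decreased. Those calls were made anew and can include regions shared before the cutoff. The regions seen in 1 line were also unlike in GC content. For H3K18ac its median was 47.1% for those of C4-2BER only and 53.2% for those of C4-2B only in the MYC window, and 49.0% and 54.9% over all chromosomes, and its part in the counts was not tested.

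The H3K18ac excess was spread along both sides. From 1000 to 100 kb upstream of MYC, H3K18ac covered 121.9 kb in C4-2BER and 65.1 kb in C4-2B, a ratio of 1.87 beside 1.09 over all chromosomes, with 46 regions increased and 18 decreased of 136. H3K27ac covered 53.4 and 48.3 kb there, a ratio of 1.105 beside 1.24 over all chromosomes. From 400 to 1000 kb downstream, H3K18ac covered 30.2 and 15.03 kb, with 20 regions increased and 6 decreased of 46. The marks therefore differed on the upstream side, where H3K18ac was wider in C4-2BER by more than its list as a whole and H3K27ac was not.

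In the MYC window 8 regions of H3K27ac were increased in both marks and 0 decreased in both, that is 9.76% and 0% of 82, beside 8.15% and 5.01% over all H3K27ac regions. Counted over H3K18ac regions the shares of all regions were 3% and 1.81%. All 8 had a peak in C4-2BER only, with folds above 7.45% to 59.8% of the peaks of that H3K27ac list. The 5 of highest H3K27ac fold lay at 921.4 kb in an intron of the lncRNA gene CCDC26 (4.01, with 3.88 in H3K18ac), at −698 kb in a PCAT1 intron (3.54), at −335 kb at the promoter of CCAT2 (3.32), at −672 kb in a PCAT1 exon (2.92) and at −684 kb in a PCAT1 intron (2.61). The other 3 had H3K27ac folds of 2.17 to 2.27. No other region of the family was increased or decreased in both marks.

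Only 2 regions of the MYC window that had an H3K27ac peak in both lines passed the 2-fold ratio. One at −151 kb rose from 2.51 in C4-2B to 5.30 in C4-2BER, and one at 473.0 kb fell from 6.95 to 3.31. The remaining 48 shared regions had ratios under 2-fold. Among the stronger ones was the intergenic region at −230 kb, with an H3K27ac fold of 11.3 in C4-2BER against 7.99 in C4-2B, the strongest H3K27ac peak of C4-2BER in the window outside the promoter. The region at −721 kb over PCAT1 was much the same in both lines, with H3K27ac folds of 9.48 and 8.54. The median log2 ratio of the 50 shared regions was −0.01 for H3K27ac and that of 136 shared H3K18ac regions −0.12, beside −0.17 and −0.12 over all shared regions.

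**Figure D3:**
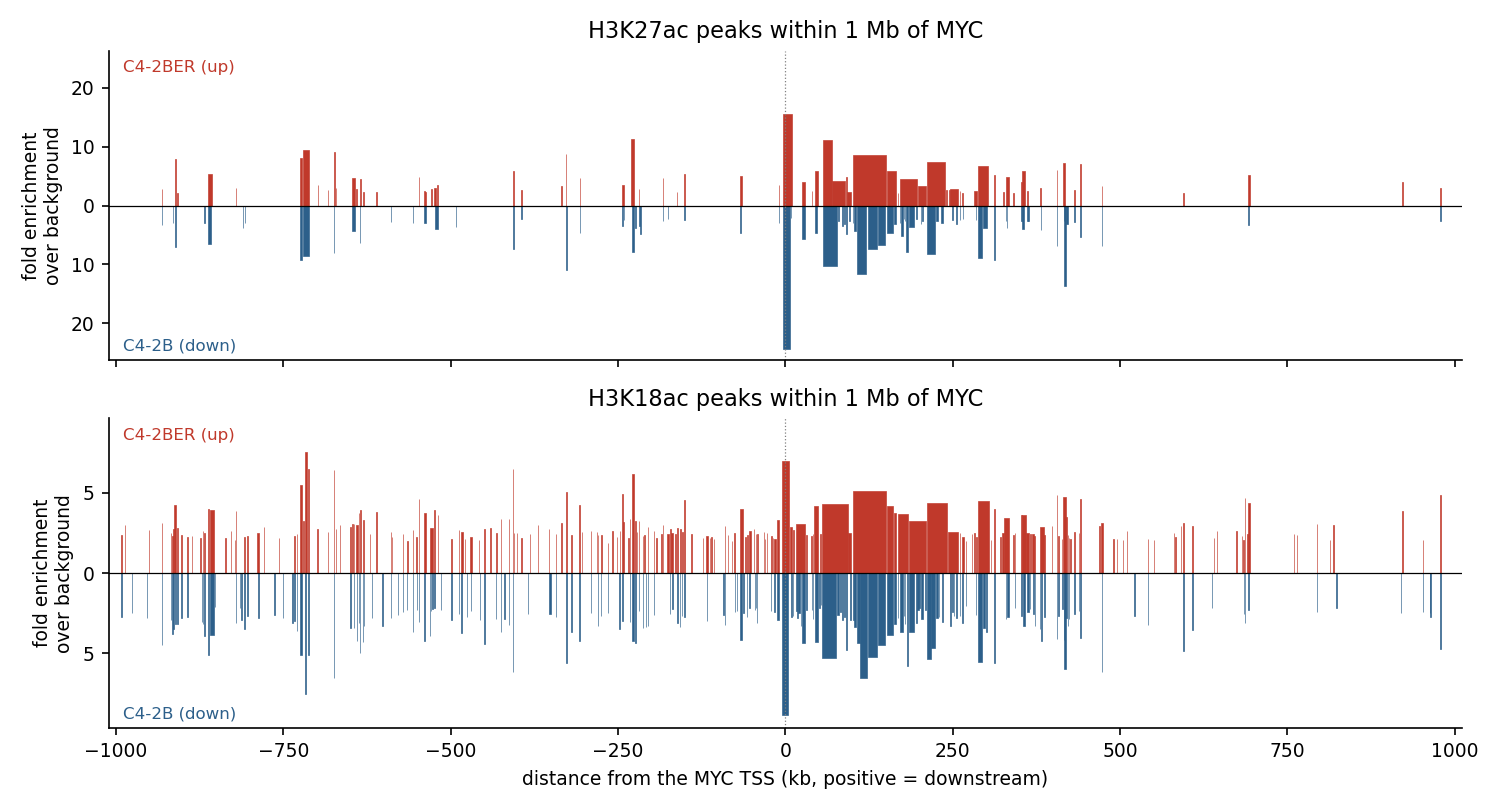
Peaks within 1 Mb of MYC by distance from the canonical TSS (x axis, kb, positive values downstream) and fold enrichment over the local background (y axis), for H3K27ac (top) and H3K18ac (bottom), with C4-2BER drawn upward in red and C4-2B downward in blue. The broad block to the right of the TSS is PVT1, where C4-2BER had fewer and wider peaks.

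The other genes described in the MYC window differed in how their starts were marked. POU5F1B, a retrogene related to the stem cell factor OCT4 and the only other protein-coding gene there, had a promoter H3K27ac fold of 8.78 in C4-2BER against 10.9 in C4-2B, and an H3K18ac fold of 5.05 and 5.59. CASC11, which is divergent from MYC, shared its promoter peak and therefore its values. At CASC19 the highest H3K27ac fold was 4.78 in C4-2BER against 2.94 in C4-2B, at different starts. The TSSs of PCAT1 inside the window reached 8.04 and 9.20. CASC8 and PRNCR1 had no promoter peak of either mark.

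The region around MYCN was sparsely marked in H3K27ac, and its strongest H3K27ac peak lay downstream of the gene, not on it, in both lines. The next strongest lay downstream as well in C4-2BER. In C4-2B they lay upstream, at −33.7 kb with a fold of 4.11 and at −47.5 kb with 3.99. H3K27ac was found in 14 regions, of which 4 were increased and 2 decreased, all by presence in 1 line, and the increased and decreased shares of 28.6% and 14.3% were near or below those over all regions. Of 29 H3K18ac regions, 6 (20.7%) were increased and 10 (34.5%) decreased, beside 26.2% and 23.5% over all regions, so the decreased share lay above that of all regions. No region was increased, or decreased, in both marks.

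Of the downstream H3K27ac regions of MYCN, 3 were higher in C4-2BER than in C4-2B, each by less than 2-fold. At 23.5 kb the fold was 5.01 and 2.97, with 5.35 and 3.93 in H3K18ac. At 48.6 kb it was 5.70 and 3.72, with 3.69 and 3.33 in H3K18ac. At 71.7 kb, at the promoter of the lncRNA gene GACAT3, it was 6.14 and 5.21, with 4.88 and 4.52 in H3K18ac. Each was thus stronger than the MYCN promoter itself, in H3K27ac, in C4-2BER. A peak at 14.9 kb, with 3.03, was found in C4-2BER only in H3K27ac, while H3K18ac was alike there, at 3.21 and 3.29. At 90 kb, in GACAT3, the order was the other way, with 2.71 in C4-2BER against 3.35 in C4-2B. The highest H3K18ac peak at a GACAT3 start in the window was also lower in C4-2BER, with 4.88 against 5.57 in C4-2B. Upstream of the promoter the shared H3K27ac regions were higher in C4-2BER too. The folds in C4-2BER and C4-2B were 4.14 and 3.99 at −47.5 kb, 4.63 and 4.11 at −33.7 kb, and 3.71 and 2.66 at −28.4 kb. In C4-2BER these also exceeded the MYCN promoter, so neither trait was particular to the downstream side. Of the 8 shared H3K27ac regions, 6 were higher in C4-2BER, with a median log2 ratio of 0.20 beside −0.17 over all shared regions.

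The middle 300 bases of the GACAT3 peak, the strongest H3K27ac peak in the MYCN window in both lines, are shown as an example of these downstream regions (GRCh38, chr2:16012762-16013061, forward strand). They had a GC content of 52.0% and 5 CpG sites. None of the motifs searched was found, so no base is in capitals.
GACAT3 peak: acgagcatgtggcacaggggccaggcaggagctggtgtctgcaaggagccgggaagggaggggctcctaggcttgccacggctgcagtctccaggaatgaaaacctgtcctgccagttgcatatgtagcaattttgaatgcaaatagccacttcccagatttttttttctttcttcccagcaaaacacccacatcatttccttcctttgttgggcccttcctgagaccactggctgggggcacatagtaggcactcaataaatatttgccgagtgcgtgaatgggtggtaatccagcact

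Of the lncRNA genes beside MYCN, MYCNOS, its antisense partner, shared the H3K18ac peak of MYCN and had H3K27ac in C4-2BER only, with 2.26. MYCNUT had H3K18ac alone, with 2.25 and 2.84 in C4-2BER and C4-2B. ChIP-Seq carries no strand, so reads at MYCN and MYCNOS cannot be told apart.

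**Figure D4:**
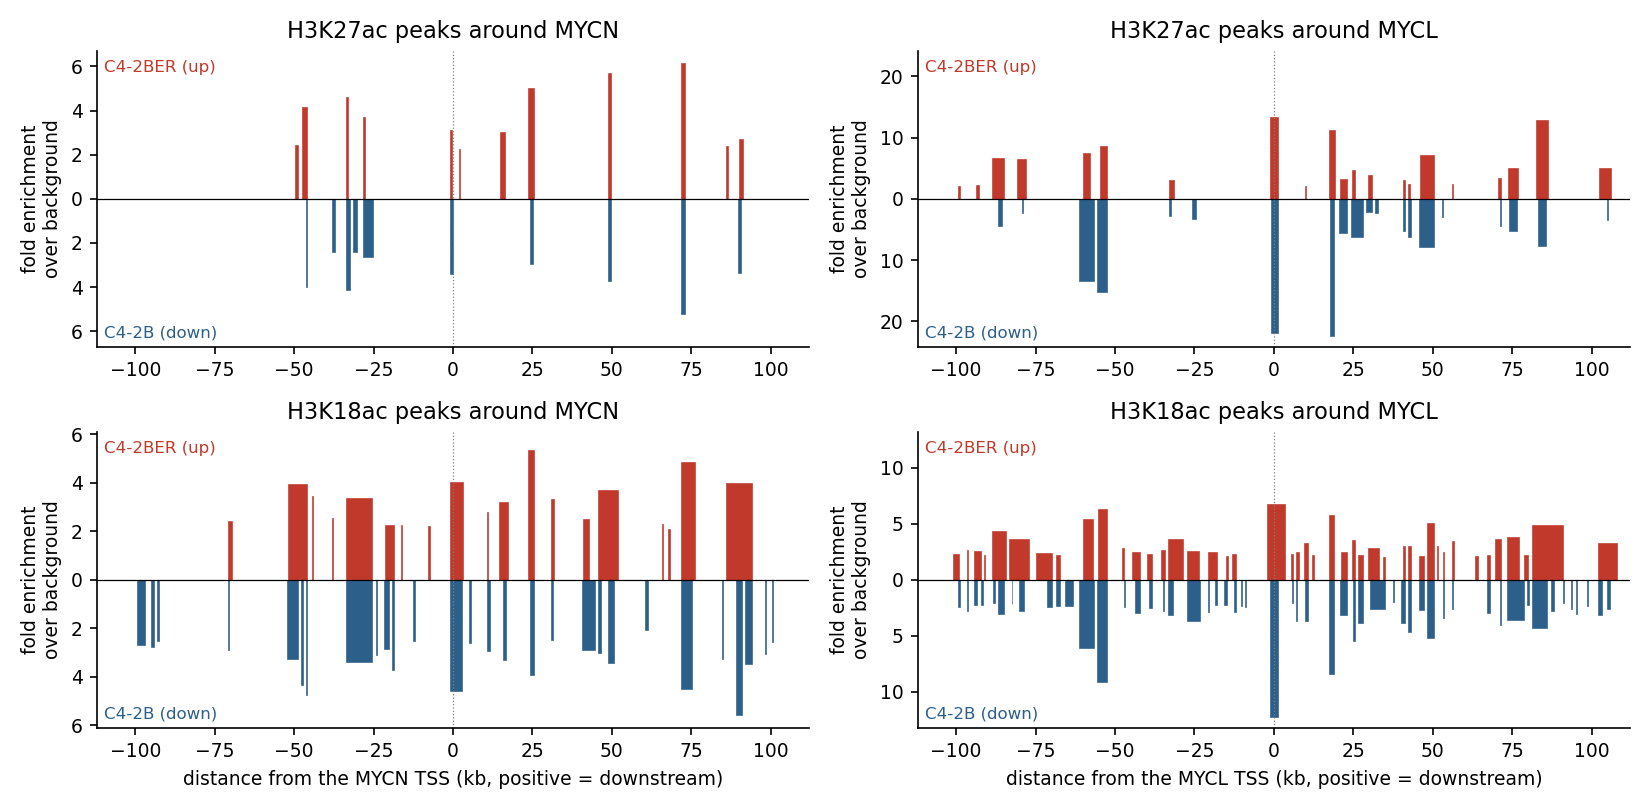
Peaks within 100 kb of MYCN (left) and MYCL (right) by distance from the canonical TSS (x axis, kb, positive values downstream of the gene's own direction) and fold enrichment over the local background (y axis), for H3K27ac (top) and H3K18ac (bottom), with C4-2BER upward in red and C4-2B downward in blue. The y axes differ between panels. The MYCN window stayed at or below 6.14 in H3K27ac, while the MYCL window reached 21.9 at the MYCL promoter and 22.4 at that of TRIT1, both in C4-2B.

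Around MYCL, the promoters of protein-coding genes were lower in C4-2BER, while several outlying H3K27ac regions, lncRNA promoters among them, were higher. TRIT1, a tRNA modifying enzyme next to MYCL, had a promoter H3K27ac fold of 11.3 in C4-2BER against 22.4 in C4-2B (log2 −0.99, −0.57 after rescaling). MFSD2A, a lysophosphatidylcholine transporter, had 8.61 and 15.3 (log2 −0.83 and −0.49). In H3K18ac the ratios were −0.54 for TRIT1 and −0.52 for MFSD2A, or −0.31 and −0.28 after rescaling. Together with MYCL, all 3 protein-coding promoters of the window were lower than the median gene on both scales.

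Away from the promoters, the H3K27ac fold in a TRIT1 intron 42.2 kb from the MYCL TSS, at an alternative TRIT1 start, fell from 6.28 in C4-2B to 2.45 in C4-2BER, with 4.65 and 2.98 in H3K18ac. At the outer ends of the window the order was reversed. At the promoter of the lncRNA gene LINC02811, 82.6 kb downstream, H3K27ac was 12.8 in C4-2BER against 7.69 in C4-2B, and H3K18ac 4.91 and 3.89. In an intergenic region from −80.9 kb, H3K27ac was 6.56 across 2924 bp in C4-2BER and 2.31 across 246 bp in C4-2B, and H3K18ac 3.66 and 2.68. In the next, at −88.7 kb, H3K27ac was 6.61 and 4.38, and H3K18ac 4.38 and 2.76. In C4-2BER the LINC02811 peak was nearly as strong as the MYCL promoter at 13.4, while in C4-2B it was far weaker than the promoter. Of 24 H3K27ac regions in all, 5 were increased and 4 decreased (20.8% and 16.7%), and of 50 H3K18ac regions 4 and 8 (8.00% and 16.0%), each below the share over all regions.

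The partners and regulators of the MYC proteins were described from a list of 30 genes. In H3K27ac 28 had a promoter peak, 0 were increased and 3 decreased. Over all 20033 protein-coding genes 1657, or 8.27%, were decreased. Only 15346 of the 20033 had a peak and could be called, so the share among marked genes was above 8.27%. Among the 3 decreased genes of the list, ZBTB17, the MYC partner MIZ1, fell from 29.9 to 12.4. KAT5, an acetyltransferase recruited by MYC, fell from 24.9 to 11.1, and neither passed after rescaling (log2 −0.80 and −0.74). In all 1 of the 28 was decreased after rescaling. In H3K18ac 0 of 29 marked genes passed in either direction. MAX, the obligate partner, had an H3K27ac fold of 11.8 in C4-2BER against 18.2 in C4-2B (log2 −0.62, −0.22 rescaled). LIN28A had no peak of either mark, and IGF2BP1 none of H3K27ac. The median log2 ratio of the network was −0.63 in H3K27ac and −0.43 in H3K18ac, beside −0.50 and −0.33 over all genes.

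Of 40 listed MYC target genes, all with promoter peaks of both marks in both lines, 0 were increased and 11 decreased in H3K27ac. Over all 20033 protein-coding genes 1657, or 8.27%, were decreased. Only 15346 of the 20033 had a peak and could be called, so the share among marked genes was above 8.27%. After rescaling 0 of the 40 targets were decreased, where 673 of the 20033 genes, or 3.36%, were. The 5 with the lowest ratios were HK2, the hexokinase (13.9 in C4-2BER against 34.8 in C4-2B, log2 −1.32), NOP2, an rRNA methyltransferase (9.39 and 23.04, −1.29), UNG, a DNA glycosylase (9.85 and 23.9, −1.28), MCM5 of the replicative helicase (9.27 and 22.0, −1.24) and the RNA helicase DDX18 (11.2 and 26.2, −1.23). Over all 20033 genes, of which 17828 had an H3K18ac peak, 1051 (5.25%) were decreased in that mark, and 831 (4.15%) after rescaling. In H3K18ac 3 of the 40 targets were decreased. These were POLR1B, a subunit of RNA polymerase I (log2 −1.23), DDX18 (−1.21) and CAD, which starts pyrimidine synthesis (−1.08), and POLR1B alone passed after rescaling. The median log2 ratio of the targets was −0.71 in H3K27ac and −0.51 in H3K18ac, and −0.22 and −0.32 after rescaling, beside −0.11 and −0.13 over all genes. The targets thus shifted with the promoters as a whole and slightly below them, and the call of the H3K27ac decreases rested on the scale used.

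**Figure D5:**
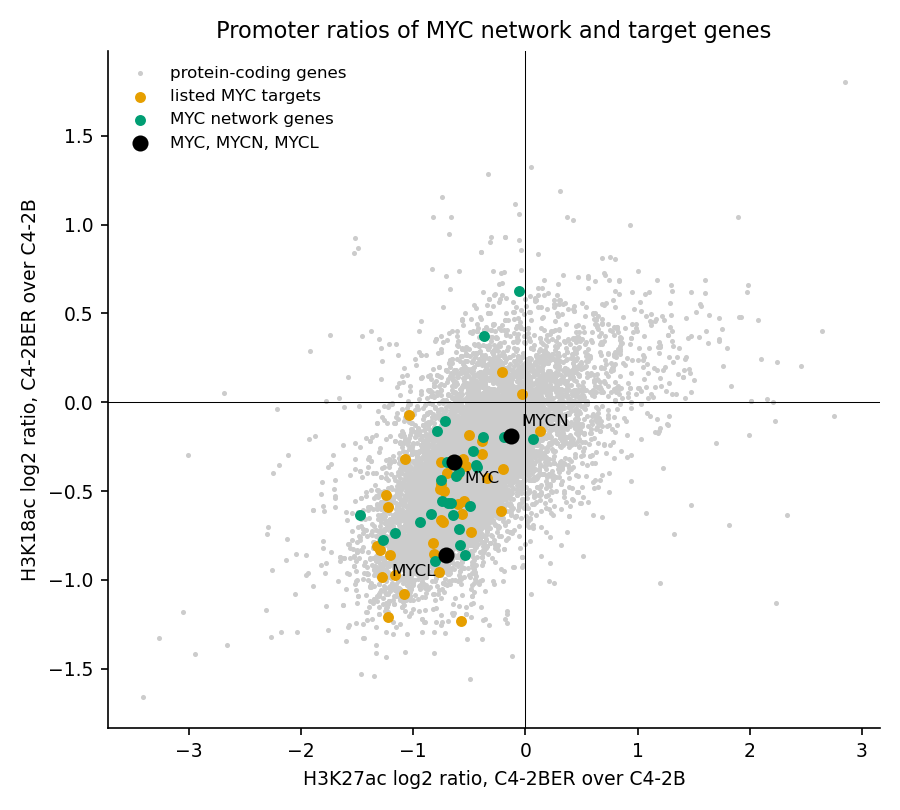
Log2 ratio of promoter fold enrichment, C4-2BER over C4-2B, for H3K27ac (x axis) and H3K18ac (y axis), 1 point per protein-coding gene with both marks in both lines (grey), with listed MYC target genes (orange), MYC network genes (green) and the 3 family members (black). Values are before rescaling. Most points of all kinds lie below 0 in both marks, and MYCN lies nearest to 0 of the 3 members.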

How the data were processed

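H3K27ac and H3K18ac ChIP-Seq libraries of C4-2B and C4-2BER were crosslinked with DSG and formaldehyde and sonicated. According to the study's methods, the authors used bowtie2 for alignment to GRCh38, filtered out the ENCODE blacklist, poor alignments and PCR duplicates, pooled the replicates and called broad peaks with macs2. The submitters' processing notes also name Trimmomatic 0.33. Each deposited peak has a fold enrichment by the authors, a ratio to local background averaged over its width. The −log10 of its p-value and of its q-value, also from the authors, were used for filters and for the local background. The authors did not scale fold enrichment between lines, and wide peaks average strong and weak parts.

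Chromosome lengths of GRCh38 were checked against the lists. Overlapping peaks of both lines were merged into regions, valued by the length-weighted mean fold. A region or promoter counted as increased where C4-2BER alone had a peak or its fold was 2 times that of C4-2B or more, and as decreased in the mirrored case. Rescaling subtracted a robust (Huber) line of log2 ratio on mean log2 fold over shared regions. Genes were those of GENCODE release 44, and the text names the members, their coding neighbours, listed lncRNA genes, MAX, the network genes counted as changed that are reported here and the 5 targets of largest ratio. Regions were described where they lay at a member's promoter or were among the highest in fold, and some others, such as the shared regions that changed at MYC, were chosen after their values were seen. Of the members MYCN and MYCL were matched in the RefSeq promoter table (GRCh38.p14). Motifs were searched on both strands. Merging, calls, rescaling and motif search were tested on simulated data. The genes, lists, rules and windows were chosen with earlier results of these data known. Alternatives were another promoter window or TSS set, rescaling, stricter peaks, other overlap, presence alone and equal numbers of peaks. Reads, depth and the study's other assays were not analysed here. Python 3.11.15, pandas 2.3.3, statsmodels 0.14.6 and pysam 0.24.0 were used.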

Additional observations from a re-analysis of the deposited data

How the results depend on the processing

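No paired analysis was possible because the authors merged the replicates before peak calling, and for the same reason no replicate could be left out. The 34 promoter values recomputed under the alternatives all stayed below 0. Each moved by less than 1 robust SD of the log2 ratio over shared regions (0.50 for H3K27ac and 0.27 for H3K18ac). Only rescaling changed a value, because every other alternative picked the same peak. In H3K27ac rescaling moved MYC from −0.64 to −0.17, MYCL from −0.71 to −0.28 and MYCN from −0.13 to −0.10. In H3K18ac it moved MYCL from −0.86 to −0.60. MYCN had no H3K27ac promoter peak left at a fold of at least 4 or a −log10 q of at least 5. Of 72 region counts, 50 stayed within 1.5 times. Stricter peaks left fewer regions and lowered most of the others. With a −log10 q of at least 5, the MYC window had 9 increased and 8 decreased H3K27ac regions, and 20 and 21 in H3K18ac. The MYCN window had 2 and 0 in H3K27ac and 3 and 1 in H3K18ac. At MYCL there were 3 and 1 in H3K27ac and 5 and 5 in H3K18ac, the latter beside 4 and 8 at the main setting. With a fold of at least 4, the MYC window had 7 and 4 in H3K27ac and 7 and 14 in H3K18ac. In H3K18ac the excess of increased regions thus turned. No H3K18ac region of 1 line only there had reached a fold of 4, so the turn came from regions shared at the main setting. The cutoff was not scaled between the lines, whose median H3K18ac folds were 2.55 in C4-2BER and 2.74 in C4-2B. At this cutoff the MYCN window had 3 increased and 0 decreased in H3K27ac and 1 and 3 in H3K18ac. The MYCL window had 2 and 4 in H3K27ac and 1 and 3 in H3K18ac. A larger overlap required for merging gave 7 increased and 12 decreased H3K18ac regions at MYCL. Equal numbers of peaks gave 3 increased and 4 decreased H3K27ac regions there. The ratio of cover from MYC to 400 kb downstream, with alternatives chosen after seeing the data, was 1.68 at a fold of at least 4 and 1.27 at equal covered length in H3K27ac. In H3K18ac it was 1.69 at a −log10 q of at least 5 and 1.28 with gaps of up to 3000 bp filled. It stayed above 1 in all 8.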

Other observations

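The sequences of the H3K27ac peaks were searched in their middle 300 bases, since the lists give no summits. CACGTG, the E-box bound by MYC with MAX, was found in 1 of 73 peaks of C4-2BER and 2 of 85 of C4-2B in the MYC window, in 0 of 12 and 0 of 10 at MYCN, and in 1 of 21 and 1 of 20 at MYCL, beside 4.68% and 5.35% of all peaks of the lists. CAGCTG, an E-box of proneural factors, was found in 9 of 73 and 10 of 85 peaks at MYC, 2 of 12 and 2 of 10 at MYCN and 2 of 21 and 1 of 20 at MYCL, beside 17.2% and 18.6%. TGTTTAC, the forkhead site bound by FOXA1, was found in 5 of 73 and 5 of 85 peaks at MYC, in 0 of either line at MYCN, and in 2 of 21 and 1 of 20 at MYCL, beside 4.93% and 4.33%. In the 300-base RefSeq promoters, 250 bases before to 50 after the start, TTTGGCGC was found in 0.89% of 15843 protein-coding genes and GGGCGG in 58.5%, and MYCN held both, while neither MYCN nor MYCL held CACGTG, found in 8.88%.

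The background implied by narrow weak peaks within 5 Mb of a gene, from their fold enrichment and p-value, was set beside that of the whole list. For H3K18ac it was 0.98 times that of the list near MYC in C4-2BER (41 peaks) and 1.04 times in C4-2B (18 peaks). For H3K27ac it was 0.78 and 0.95 times, from 3 and 11 peaks. Near MYCN it was 0.82 and 0.81 times for H3K18ac, beside 0.81 and 0.87 for the whole of chromosome 2, and near MYCL 1.09 and 0.95 times.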
